A study of Homo sapiens with 12 samples.

Results

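Metallothioneins are small cysteine-rich proteins that hold zinc and copper ions, and 5 of their genes (MT2A, MT1E, MT1F, MT1G and MT1X) were described here. They were chosen by symbol as members of the family, and make up 5 of the 26365 genes in the table. Their RNA was measured in HCC70, a basal-like triple-negative breast tumour line, in 12 libraries of poly-A RNA. The cells stably carried an shRNA that targets LAD1 (shLAD1 cells) or a scrambled control shRNA (shScramble cells). Each kind was starved of serum overnight and then took EGF at 50 ng/ml for 0, 40 or 240 min, with 2 libraries in each of the 6 groups. All groups went through the starvation, both later times had EGF in every library, and the labels name no other shRNA against LAD1. Time and handling therefore cannot be told apart from EGF, nor loss of LAD1 from another effect of that shRNA. Because RNA came from whole cultures, fewer cells with a transcript and less transcript per cell cannot be told apart.

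Metallothioneins bind metal ions through clusters of cysteine sulphur atoms, buffer free zinc, and take up toxic metals such as cadmium. The human genes lie side by side on the long arm of chromosome 16, with several pseudogenes among them. In many cell types they are switched on by metal through the zinc-sensing factor MTF1, which binds metal response elements in their promoters, and also by glucocorticoids and oxidative stress. In breast tissue, metallothionein staining is known from basal and myoepithelial cells.

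The libraries held 12428618 to 16721013 reads. LAD1 averaged 978 ± 160, 1076 ± 148 and 2416 ± 168 normalized counts at 0, 40 and 240 min in shLAD1 cells. In shScramble cells it averaged 6165 ± 340, 6165 ± 505 and 9648 ± 772 (SD, n = 2 each in both kinds of cells). The libraries thus matched their shRNA labels, and the labels of time were not checked in this way. The epithelial and basal markers were present in every library, with KRT5 at 39623 to 78195 and EPCAM at 2644 to 3552 normalized counts. Of the genes that the line should lack, PGR was at 0 in 11 of 12 libraries and ESR1 reached 28.98. ERBB2, listed with these receptors, ran from 1520 to 2566 in the same libraries. The immune genes PTPRC and CD3E stayed at or under 3.002, and PECAM1 reached 18.4. Of 2 collagen genes, COL3A1 was at 0 in 10 of 12 libraries, while COL1A1 ran from 243 to 895. COL1A1 was higher in shLAD1 cells, by 1.26 ± 0.10 on the log2 scale in the mean of the 3 times. Whether COL1A1 bears on the metallothioneins was not tested.

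The 5 transcripts are near-identical in their coding parts, which decides how far a read can be assigned to a single gene. Each coding sequence has 186 bases (61 codons before the stop). They are shown against MT2A, the sole MT2 gene of the set, with capitals marking bases that differ from it. The sequences are those of GENCODE 29 transcripts on GRCh38.
MT2A: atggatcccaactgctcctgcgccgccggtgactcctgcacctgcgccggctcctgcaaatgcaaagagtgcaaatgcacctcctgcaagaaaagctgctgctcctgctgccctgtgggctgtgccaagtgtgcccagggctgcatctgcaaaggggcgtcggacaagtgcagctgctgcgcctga
MT1E: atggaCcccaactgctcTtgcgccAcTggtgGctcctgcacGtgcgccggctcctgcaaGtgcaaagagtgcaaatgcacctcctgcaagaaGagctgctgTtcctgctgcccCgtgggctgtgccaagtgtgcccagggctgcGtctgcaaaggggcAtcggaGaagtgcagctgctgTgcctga
MT1F: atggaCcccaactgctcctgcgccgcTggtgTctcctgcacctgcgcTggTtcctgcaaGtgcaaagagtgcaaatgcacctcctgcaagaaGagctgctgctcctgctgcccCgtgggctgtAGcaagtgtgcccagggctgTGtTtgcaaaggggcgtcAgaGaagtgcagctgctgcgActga
MT1G: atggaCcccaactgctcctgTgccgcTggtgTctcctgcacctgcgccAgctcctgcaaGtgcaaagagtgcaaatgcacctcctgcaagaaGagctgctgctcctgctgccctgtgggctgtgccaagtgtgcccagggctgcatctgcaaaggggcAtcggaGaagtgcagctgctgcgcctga
MT1X: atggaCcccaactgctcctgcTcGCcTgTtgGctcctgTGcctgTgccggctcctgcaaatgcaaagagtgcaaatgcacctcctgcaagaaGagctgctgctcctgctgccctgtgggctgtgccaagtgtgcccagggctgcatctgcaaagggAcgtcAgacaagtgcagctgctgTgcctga
MT1G differed from MT2A at 9 bases, MT1E and MT1X at 14 each and MT1F at 16. Over all 10 pairs, identity ran from 88.7% (MT1F and MT1X) to 95.2% (MT1G and MT2A).

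Sequence shared with other genes was also counted over whole transcripts. All stretches of 50 bases in a transcript were matched letter for letter to transcripts of other genes, in either orientation. MT1X shared 45.1% of its stretches with another gene, 29.2% with AC026461.1 and 11.7% with MT1G. Which orientation a match had was not recorded. MT1G shared 20.2%, MT1E 5.34%, MT2A 4.88% and MT1F 3.59%. Read length, and how reads with several matching genes were handled, are not stated in these sources. By this measure, counts of MT1X and MT1G are the least certain of the 5. Those of MT1F, MT1E and MT2A depend least on how such reads were treated.

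MT1X and MT2A were the most abundant members. Per kilobase of transcript, the median over the 12 libraries was 3574 normalized counts for MT1X, 1494 for MT2A, 486 for MT1F, 108 for MT1E and 68.8 for MT1G. Libraries ranged from 1910 to 6811 for MT1X, from 513 to 2952 for MT2A, from 374 to 570 for MT1F, from 14.2 to 283 for MT1E and from 12.6 to 258 for MT1G, all per kilobase. Neighbours in this order overlapped over libraries, except MT1F and MT1E, whose ranges were apart. As a share of the members' summed normalized counts (not per length), MT1X made up 38.8% to 66.5% and MT2A 19.4% to 45.9%.

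**Figure D1:**
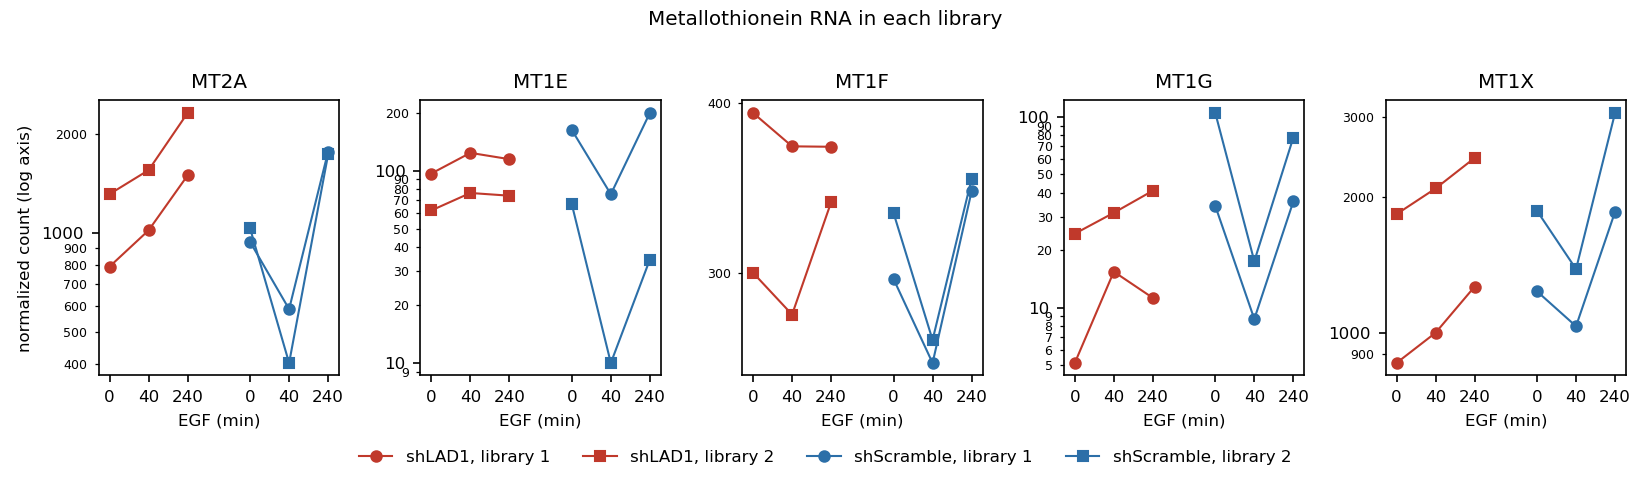
Normalized counts (log axis, with its own scale in each panel) of the 5 metallothioneins at 0, 40 and 240 min of EGF in shLAD1 cells (left of each panel, red) and shScramble cells (right, blue); circles are library 1, squares library 2, and lines join libraries with the same number. In shScramble cells every line dips at 40 min, MT2A to 588 and 403, while in shLAD1 cells both lines of MT2A, MT1E, MT1G and MT1X are higher at 40 than at 0 min.

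The summed normalized counts of the 5 members outline the course. In shLAD1 cells the sum was 2146 and 3533 at 0 min, 2533 and 4030 at 40 min and 3263 and 5211 at 240 min (libraries 1 and 2). In shScramble cells it was 2672 and 3401 at 0 min, 1966 and 2084 at 40 min and 4204 and 5264 at 240 min. Both libraries of shLAD1 cells were higher at each later time, and both of shScramble cells were lowest at 40 min and highest at 240 min.

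MT2A, the MT2 isoform found in nearly all tissues, moved most clearly among the abundant members. In shLAD1 cells it had 792 and 1315 normalized counts at 0 min, 1020 and 1555 at 40 min and 1499 and 2320 at 240 min. In shScramble cells it had 941 and 1034 at 0 min, 588 and 403 at 40 min and 1771 and 1735 at 240 min. Both shScramble libraries at 40 min were below both at 0 min, and both at 240 min were above both at 40 min. The shLAD1 libraries at neighbouring times overlapped. Of all tested genes, 16.1% had both shScramble libraries lower at 40 than at 0 min, and 31.6% had both higher at 240 than at 40 min. Between 40 and 240 min in shScramble cells MT2A rose by 1.85 ± 0.32 on the log2 scale (fitted SE, n = 2 per group, limma-trend adjusted p = 0.00583). Its change between 0 and 40 min in shScramble cells was -1.02 ± 0.32 (adjusted p = 0.552).

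MT1X, an MT1 isoform that metals induce, followed MT2A at a smaller amplitude. In shLAD1 cells it had 859 and 1832 normalized counts at 0 min, 1002 and 2087 at 40 min and 1267 and 2437 at 240 min. In shScramble cells it had 1237 and 1863 at 0 min, 1036 and 1385 at 40 min and 1854 and 3065 at 240 min. Library 2 was above library 1 in all 6 groups, and of the groups compared only those at 240 and 40 min in shScramble cells did not overlap (both later libraries were the higher ones in 31.6% of tested genes). Taken between libraries of the same number, the ratio of 40 to 0 min was 117% and 114% in shLAD1 cells, against 83.7% and 74.4% in shScramble cells.

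MT1F, another MT1 isoform, was the steadiest member. In shLAD1 cells it had 393 and 300.2 normalized counts at 0 min, 372 and 280 at 40 min and 371 and 338 at 240 min. In shScramble cells it had 297 and 332 at 0 min, 258 and 268 at 40 min and 344 and 352 at 240 min. It was lower at 40 than at 0 min between all 4 pairs of same-number libraries, by log2 changes of -0.08 and -0.10 in shLAD1 cells and -0.20 and -0.31 in shScramble cells.

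MT1E, an MT1 isoform known mainly from breast cancer lines without the estrogen receptor, was low and variable. In shLAD1 cells it had 96.5 and 62.1 normalized counts at 0 min, 124 and 76.5 at 40 min and 115 and 74.0 at 240 min. In shScramble cells it had 163 and 66.8 at 0 min, 75.4 and 10.02 at 40 min and 199 and 34.5 at 240 min. Library 1 was above library 2 in all 6 groups, the opposite order to MT1X and MT1G. The same-number ratio of 40 to 0 min was 128% and 123% in shLAD1 cells, against 46.4% and 14.99% in shScramble cells.

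MT1G, an MT1 isoform often silenced in carcinomas, had the lowest median of the members. In library 2 of shScramble cells it was above MT1E at 0, 40 and 240 min. In shLAD1 cells it had 5.13 and 24.4 normalized counts at 0 min, 15.4 and 31.4 at 40 min and 11.3 and 41.0 at 240 min. In shScramble cells it had 34.2 and 104.9 at 0 min, 8.73 and 17.5 at 40 min and 36.0 and 77.9 at 240 min. At 0 min both shLAD1 libraries were below both shScramble libraries, as in 22.7% of tested genes. Only 396 reads of MT1G were counted in all 12 libraries, against 1079 of MT1E, 3909 of MT1F, 14658 of MT2A and 19713 of MT1X, so MT1G carries the largest counting error of the set.

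The comparison of 40 with 0 min asked for the early response to EGF. In shScramble cells all 5 members had a negative log2 change, MT1G of -2.18 ± 0.89, MT1E of -1.86 ± 1.03, MT2A of -1.02 ± 0.32, MT1X of -0.34 ± 0.51 and MT1F of -0.26 ± 0.16. Their median was -1.02, beside -0.01 over all tested genes. None was called at an adjusted p under 0.05 by limma-trend (0.853% of the 13950 tested genes were called, nearly all of them higher), and 2 had an unadjusted p under 0.05 (MT2A 0.0123, MT1G 0.0387), while edgeR (0.824% of its genes called) and DESeq2 (1.36%) also called none. Both 40 min libraries were below both 0 min libraries for MT2A, MT1F and MT1G, a pattern that 16.1% of tested genes had. In shLAD1 cells the changes were 0.89 ± 0.89 for MT1G, 0.33 ± 1.03 for MT1E, 0.30 ± 0.32 for MT2A, 0.20 ± 0.51 for MT1X and -0.09 ± 0.16 for MT1F. None of these was called by limma-trend or edgeR (1.04% of tested genes called by each) or by DESeq2 (1.45%), and none had an unadjusted p under 0.05.

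The replicate numbers pair the libraries, and the members' calls depend on whether the fit uses that. With the number as a replicate block, MT1G was called lower at 40 than at 0 min in shScramble cells (adjusted p = 0.00633, limma-trend), where 1.45% of tested genes were called. With a block within each shRNA, which treats the libraries as 4 cell populations followed over time, 4 of 5 members were called lower there (3.80% of tested genes called, 0.616% lower). Those were MT1G (adjusted p = 2.58e-05), MT1X (0.000858), MT1E (0.00144) and MT2A (0.0291), and MT1F was not (0.166). The same fit called none of the 5 in shLAD1 cells, where 4.77% of tested genes were called and the smallest adjusted p of a member was 0.0584, for MT1X.

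**Figure D2:**
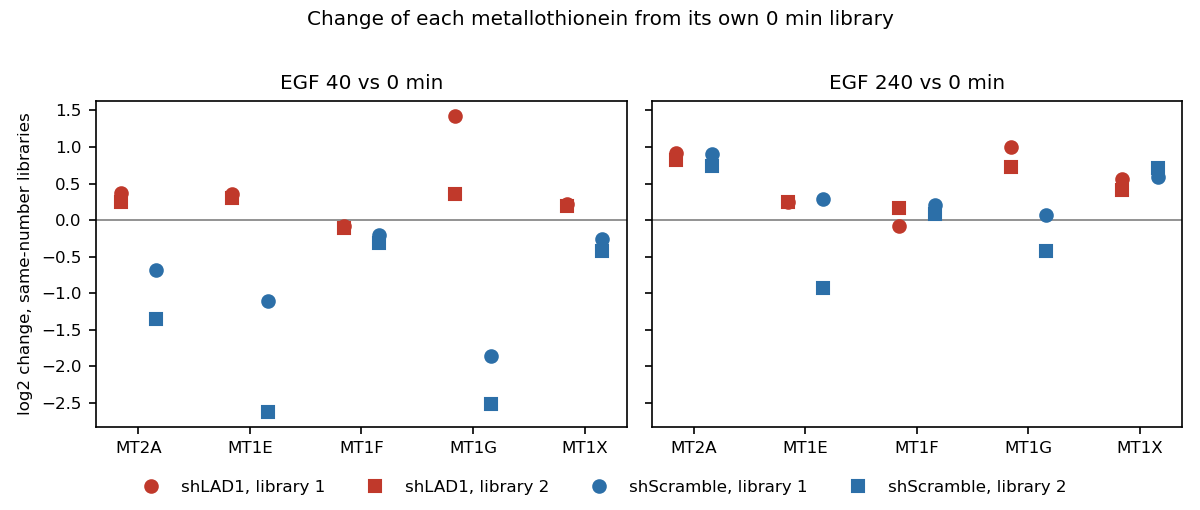
Log2 change of each metallothionein from the 0 min library of the same shRNA and number (vertical axis) at 40 min (left) and 240 min (right); red marks are shLAD1 and blue marks shScramble cells, circles library 1 and squares library 2. At 40 min the blue marks of all 5 genes lie below 0 and the red marks of 4 lie above it, and at 240 min MT2A and MT1X lie above 0 in all 4 populations.

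At 240 against 0 min the abundant members had positive log2 changes in both kinds of cells. For MT2A it was 0.87 ± 0.32 in shLAD1 and 0.83 ± 0.32 in shScramble cells, with adjusted p = 0.101 and 0.109 in the limma-trend fit. For MT1X it was 0.49 ± 0.51 in shLAD1 and 0.65 ± 0.51 in shScramble cells. No member was called in either (18.5% of tested genes were in shLAD1 and 20.2% in shScramble cells), and MT2A alone had an unadjusted p under 0.05. edgeR also called none, beside 18.3% of tested genes in shLAD1 and 20.0% in shScramble cells. DESeq2 called MT2A in both, with adjusted p = 0.0214 in shLAD1 cells, where 19.8% of its genes were called, and 0.0281 in shScramble cells, where 20.2% were. The replicate block called MT1X in shScramble cells (adjusted p = 0.0149, beside 32.7%) and no member in shLAD1 cells (beside 30.5%), where MT1X had an adjusted p of 0.0503. With the block within each shRNA, 3 members rose in shLAD1 cells, MT1X (adjusted p = 8.44e-07), MT2A (0.00623) and MT1G (0.0233), where 46.2% of tested genes were called. In shScramble cells 2 rose, MT1X (8.51e-09) and MT2A (0.00722), where 48.1% were called. MT1E and MT1F were not called at 240 against 0 min in either fit. In shScramble cells MT1E was 123% of its 0 min level in library 1 and 51.6% in library 2.

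The comparison of 240 with 40 min held the single call of the fit without a block. In shScramble cells all 5 members had a positive log2 change, MT1G of 2.01 ± 0.89, MT2A of 1.85 ± 0.32, MT1E of 1.54 ± 1.03, MT1X of 0.99 ± 0.51 and MT1F of 0.40 ± 0.16. MT2A was called (1 of 5, where 18.5% of tested genes were called, and 10.2% were called higher), and its adjusted p ran from 2.55e-08 to 0.0469 over the alternatives. edgeR (18.5% of genes called) and DESeq2 (19.1%) called it as well. The same-number ratio of 240 to 40 min was 301% and 430% for MT2A and 413% and 444% for MT1G. The replicate block called 3 members, MT1G (adjusted p = 0.00118), MT1X (0.00219) and MT2A (0.00625), beside 30.5% of tested genes, and the block within each shRNA called all 5, beside 46.3%. In shLAD1 cells the changes lay between -0.08 for MT1E and 0.57 for MT2A. None was called there (16.4% of tested genes were, 0 members had an unadjusted p under 0.05, and edgeR, with 16.3% of genes called, and DESeq2, with 17.6%, also called 0 members), while the block within each shRNA called MT1X (adjusted p = 0.000663) and MT2A (0.0327) beside 44.6%.

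The 40 min responses of the 2 kinds of cells were then set against each other. Between same-number libraries, the log2 change of MT2A was 0.37 and 0.24 in shLAD1 cells, against -0.68 and -1.36 in shScramble cells. That of MT1E was 0.35 and 0.30 in shLAD1 cells, against -1.10 and -2.62 in shScramble cells. That of MT1G was 1.42 and 0.35 in shLAD1 cells, against -1.85 and -2.51 in shScramble cells, and that of MT1X 0.22 and 0.19, against -0.26 and -0.43. Both shLAD1 pairs of these 4 genes were higher and both shScramble pairs lower, an arrangement found in 665 of the 13950 tested genes (4.77%). MT1F was lower in all 4 pairs.

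In the test of that difference itself, shLAD1 minus shScramble, the limma-trend fit without a block gave 3.07 ± 1.26 for MT1G, 2.19 ± 1.45 for MT1E, 1.32 ± 0.45 for MT2A, 0.55 ± 0.73 for MT1X and 0.16 ± 0.23 for MT1F. Leaving out 1 library at a time moved MT1X between 0.0008 (without library 1 of shLAD1 cells at 0 min) and 1.09 (without library 2 there), and MT1E between 0.79 and 3.58 (without library 2 or 1 of shScramble cells at 40 min). MT1G lay between 2.05 and 4.10 and MT2A between 0.96 and 1.69 in the same way. No member was called, nor was any tested gene (0%), by limma-trend, edgeR or DESeq2. Unadjusted p was under 0.05 for 99 tested genes, among them MT2A (0.0184) and MT1G (0.0396). With the block within each shRNA 11 genes were called (0.0789%), and 2 of them were MT1G (3.07 ± 0.43, adjusted p = 0.00129) and MT1X (0.55 ± 0.09, 0.00569). MT1E (0.108), MT2A (0.464) and MT1F (1) were not. The difference of the 240 min responses called no member in either fit (0% and 0.194% of tested genes), nor by edgeR or DESeq2 (0%), with log2 differences between -0.17 for MT1X and 1.04 for MT1G and no unadjusted p under 0.05 for a member in the fit without a block.

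**Figure D3:**
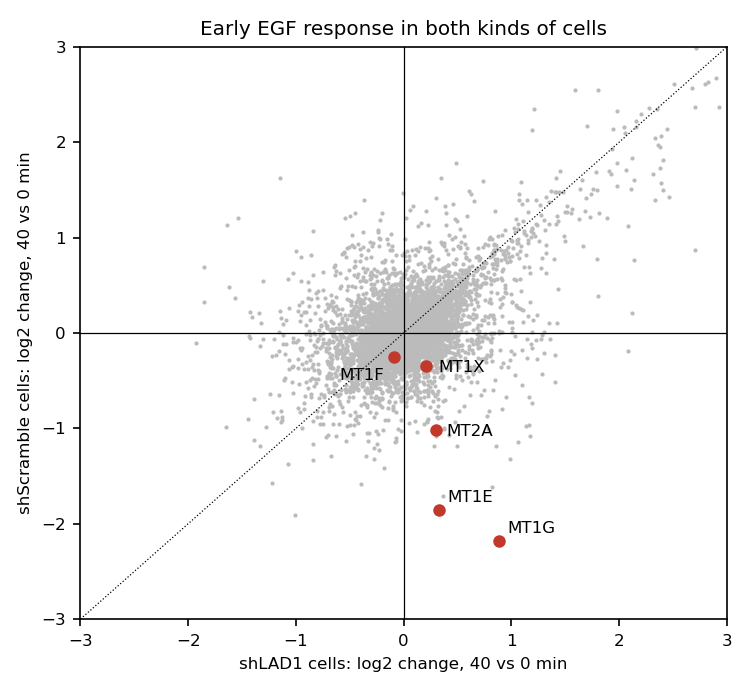
Log2 change between 0 and 40 min in shLAD1 cells (horizontal) and shScramble cells (vertical) for 13950 tested genes (grey) and the 5 metallothioneins (red); the dotted line marks equal change, and 24 genes lie outside the plotted range. MT1G (0.89 and -2.18), MT1E (0.33 and -1.86) and MT2A (0.30 and -1.02) lie at the lower right, away from the diagonal along which the EGF-induced genes fall.

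The comparison of shLAD1 with shScramble cells at each time asked what the LAD1 shRNA did to the same genes. At 0 min MT1G was lower in both same-number pairs, by log2 changes of -2.52 and -2.06, and the fitted difference was -2.29 ± 0.89 (adjusted p = 0.261). The same pairs gave 0.76 and 0.81 at 40 min and -1.60 and -0.91 at 240 min. The replicate block called MT1G lower at 0 min (adjusted p = 0.00223), lower at 240 min (0.0385) and lower in the mean of the 3 times (-0.92 ± 0.19, 0.00406), in the same limma-trend model. That fit called 11.5%, 10.5% and 36.1% of tested genes. Each fit of the mean of the 3 times, here and below, counted the times of a population as separate libraries. Its p-values may therefore be too small.

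MT2A stood apart between the shRNAs at 40 min. Its difference was 1.37 ± 0.32 (adjusted p = 0.0841), with adjusted p = 0.0437 under the replicate block, where 11.3% of tested genes were called. All shLAD1 libraries at 40 min (1020 and 1555) were above all shScramble ones (588 and 403), as were 23.4% of tested genes. At 0 and 240 min the difference was 0.05 ± 0.32 and 0.09 ± 0.32. MT1E had 1.76 ± 1.03 at 40 min, from same-number differences of 0.71 and 2.81. Without a block no member was called at 0, 40 or 240 min or in the mean of the 3 times, where limma-trend called 1.56%, 1.65%, 0.953% and 18.6% of tested genes. Unadjusted p was under 0.05 for MT1G at 0 min (0.0321), for MT2A at 40 min (0.00247) and for MT2A in the mean (0.0251), and for no other member. edgeR also called none, with 1.51%, 1.59%, 0.896% and 18.5% of genes called. DESeq2 called MT2A at 40 min (adjusted p = 0.000364) and in the mean (0.0146), with 3.57%, 3.64%, 2.55% and 17.0% of its genes called, in the same order.

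Libraries of the same group differed more in these genes than in most others. The mean absolute log2 difference between the 2 libraries of a group was 1.42 for MT1E and 1.40 for MT1G, above 98.1% and 98.0% of tested genes. It was 0.80 for MT1X (above 92.3%), 0.45 for MT2A (80.5%) and 0.20 for MT1F (52.6%). Library 2 exceeded library 1 in all 6 groups for MT1G and MT1X and in 0 of 6 for MT1E. MT2A was higher in library 2 in all shLAD1 groups, by 1.66, 1.52 and 1.55 times at 0, 40 and 240 min, and in shScramble cells the same ratio was 1.10, 0.686 and 0.980.

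Correlations between most pairs of members were higher once each population's own level was taken out. Across the 12 libraries Pearson's r of log2 values was 0.66 for MT2A and MT1X and -0.10 for MT1G and MT1E. After subtraction of the mean of each population (shRNA by number) it was 0.97 and 0.92. All 10 pairs lay between 0.59 and 0.97 after that step, against -0.25 to 0.82 before it. MT1G and MT1X went the other way, from 0.82 to 0.70. These are descriptions over 12 libraries, 3 from each population, which share depth and size factor within a library, and pairs such as MT1G and MT1X also share read-matching sequence. The same values for other gene pairs were not computed, and MT1F went against the other 4 at 40 min in shLAD1 cells.

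Most other metallothionein genes had few or no reads. MT1B, MT1H, MT1HL1, MT1IP, MT3 and MT4 had no read in any of the 12 libraries. MT1M had 35 reads in all, MT1A 28, MT1DP 18 and MT1JP 1. MT1L, which lies between MT2A and MT1E, had 638 reads in all, more than MT1G, ran from 32.6 to 72.0 normalized counts and was called in no comparison. Its log2 change between 0 and 40 min was 0.38 ± 0.26 in shLAD1 and -0.02 ± 0.26 in shScramble cells. MTL5, which ran from 158 to 232 normalized counts, is named after the family but lies outside the cluster, and fell by 0.27 in shLAD1 cells in the mean of the 3 times (adjusted p = 0.0405).

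Genes on either side of the cluster were also looked at. Of 13 flanking genes 11 were tested. None was called at 40 against 0 min in either kind of cell by limma-trend or edgeR, which called 0.824% to 1.04% of tested genes. HERPUD1 alone had an unadjusted p under 0.05, with a log2 change of 0.53 ± 0.12 in shLAD1 and 0.47 ± 0.12 in shScramble cells. DESeq2 called 1 gene higher in each, beside calls for 1.45% of its genes in shLAD1 and 1.36% in shScramble cells. The median changes of the 11 were -0.01 in shLAD1 and -0.02 in shScramble cells. BBS2, the nearest tested gene to MT2A on its outer side, was named for that place. Its changes between same-number libraries were -0.02 and -0.03 in shLAD1 cells and -0.02 and -0.06 in shScramble cells. NUP93, named likewise, lies beyond MT1X and had -0.01 and 0.01 in shLAD1 cells and -0.05 and -0.08 in shScramble cells. At 240 against 0 min HERPUD1, which acts in the degradation of misfolded proteins, fell by 1.37 in shLAD1 and by 1.44 in shScramble cells, and OGFOD1, a hydroxylase of a ribosomal protein, rose by 0.37 and 0.48.

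**Figure D4:**
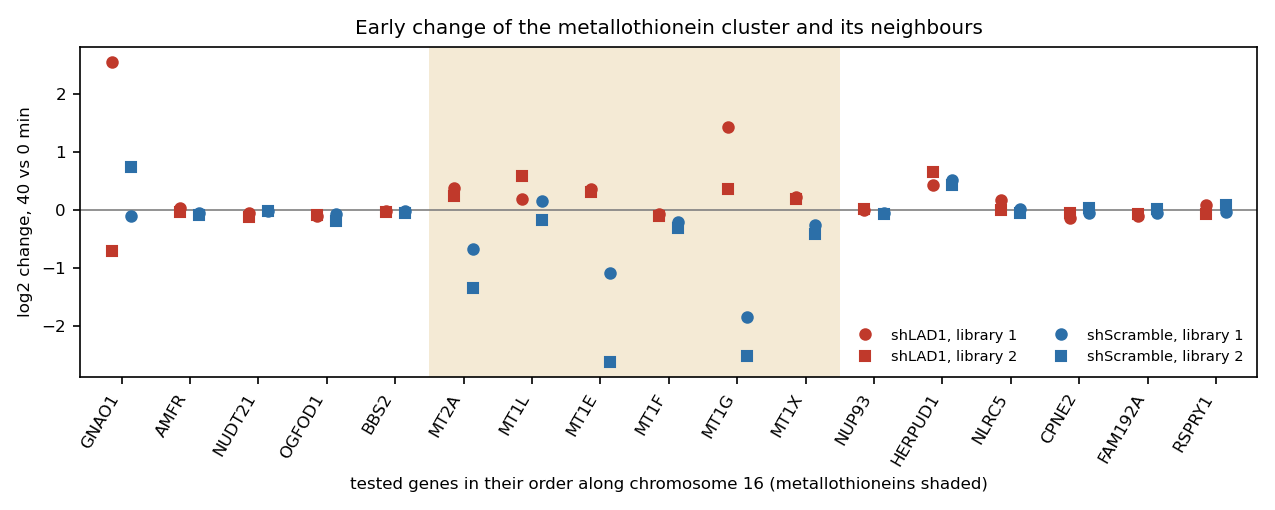
Log2 change between 0 and 40 min in same-number libraries (vertical) for the tested metallothioneins (shaded) and flanking genes, evenly spaced in their order along chromosome 16; red marks are shLAD1 and blue marks shScramble cells, circles library 1 and squares library 2. The shScramble marks of MT2A, MT1E and MT1G lie between -0.68 and -2.62, and GNAO1, with at most 15.5 normalized counts in a library, also scatters, with 2.54 and -0.71 in shLAD1 cells.

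Promoter sequence was at hand for 2 of the 5 members, MT2A and MT1X, and is shown because the metal sensor MTF1 and AP-1 are known to act on the MT2A promoter. Each is the 250 bases before the RefSeq start on the plus strand of GRCh38.p14, with matches to the metal response element core in capitals (TGCACNC or TGCGCNC, searched on both strands).
MT2A, chr16:56608334-56608583: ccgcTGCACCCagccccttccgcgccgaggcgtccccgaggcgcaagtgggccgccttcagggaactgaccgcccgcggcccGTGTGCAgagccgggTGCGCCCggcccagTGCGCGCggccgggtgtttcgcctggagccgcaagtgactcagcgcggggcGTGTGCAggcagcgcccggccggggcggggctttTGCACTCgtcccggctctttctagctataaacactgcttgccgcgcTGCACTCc
MT1X, chr16:56682220-56682469: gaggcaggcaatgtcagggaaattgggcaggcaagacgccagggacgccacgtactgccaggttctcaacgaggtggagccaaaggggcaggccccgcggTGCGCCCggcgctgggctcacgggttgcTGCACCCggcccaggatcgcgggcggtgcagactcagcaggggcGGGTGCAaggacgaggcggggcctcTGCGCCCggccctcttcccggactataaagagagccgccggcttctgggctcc
The MT2A window held 7 matches and the MT1X window held 4. Of 35116 promoter windows of this length, 24.8% held at least 1 such match, 0.370% held at least 4 and 0.0313% at least 7.

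Other motifs differed between the 2 promoters. The AP-1 site TGACTCA, bound by FOS and JUN proteins, had a match in MT2A that starts 104 bases before the start, and none in MT1X, where 4.20% of all windows held it. The MT2A match overlaps a match to TGACNNNGC, the core of the antioxidant response element, which 10.9% of windows held. MT1X held that core near the outer end of its window, on the other strand. TATAAA stood 29 bases before the start of MT2A and 30 before that of MT1X, and 10.7% of windows held it. These matches describe letters in the windows, and binding was not measured.

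Some genes of zinc handling rose at 240 min. Of 25 zinc sensors and transporters 20 were tested. At 40 against 0 min 0 were called in either kind of cell by limma-trend, edgeR or DESeq2, with 1 at an unadjusted p under 0.05 in each. Those tools called only 0.824% to 1.45% of all their genes there. At 240 against 0 min 6 rose in shLAD1 and 5 in shScramble cells, and none fell, where 10.8% of tested genes rose in shLAD1 and 11.7% in shScramble cells. The median log2 change of the 20 was -0.0059 in shLAD1 and 0.0456 in shScramble cells, beside -0.0084 and -0.0173 over all tested genes. The zinc importer SLC39A14 rose by 0.80 ± 0.12 in shLAD1 and 0.84 ± 0.12 in shScramble cells, with 186 and 206 normalized counts at 240 min against 105.8 and 119 at 0 min in shLAD1 cells. The importers SLC39A10 (0.78 and 1.16) and SLC39A6 (0.44 and 0.38) and the metal sensor MTF1 (0.39 and 0.47) rose too, in shLAD1 and shScramble cells in that order. SLC30A1, which exports zinc and is a known MTF1 target, was named after its values were seen, and was not called (-0.09 ± 0.24 and 0.14 ± 0.24).

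Between the shRNAs, in the mean of the 3 times, 1 zinc gene rose in shLAD1 cells and 4 fell, where 9.25% and 9.30% of tested genes did. MTF1 rose by 0.18 ± 0.05 (limma-trend adjusted p = 0.0277). The fit of that mean counted the 3 times of a population as separate libraries, so its p-values may be too small. The importers SLC39A9, SLC39A14, SLC39A8 and SLC39A11 fell by 0.30, 0.29, 0.31 and 0.43. Of 11 copper genes 1 fell, the copper importer SLC31A1, by 0.31 ± 0.05. At 240 against 0 min ATP7A, which pumps copper out of the cytosol, fell by 0.72 in shLAD1 and by 0.60 in shScramble cells.

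Genes of the oxidative stress response, which also acts on metallothioneins, were not called at 40 min. Of 18 tested, 0 were called at 40 against 0 min by limma-trend, edgeR or DESeq2, and 0 had an unadjusted p under 0.05. Those tools called only 0.824% to 1.45% of all their genes there. HMOX1, the haem-degrading enzyme, had a change of 0.12 ± 0.19 in shLAD1 and -0.01 ± 0.19 in shScramble cells. It was higher in shLAD1 cells at 40 min by 1.05 ± 0.19 (adjusted p = 0.0361), at 240 min by 1.15 ± 0.19 (0.0332) and in the mean of the 3 times by 1.04 ± 0.11 (adjusted p = 0.000655), where FTL, GCLM, OSGIN1 and SRXN1 rose as well, 5 of 18 in all, where 9.25% of tested genes rose. At 0 min its difference was 0.92 ± 0.19 (adjusted p = 0.0567, limma-trend), and FTL was higher by 0.40 ± 0.08 (0.0379). At 240 against 0 min 2 of the 18 rose and 1 fell in shLAD1 cells, and 1 rose and 4 fell in shScramble cells, where 7.76% of tested genes fell in shLAD1 and 8.44% in shScramble cells, and 10.8% and 11.7% rose.

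Glucocorticoid-induced genes, a list chosen because these hormones also act on metallothioneins, moved in both directions. Of 9 tested, 2 rose by 40 min in each kind of cell, ERRFI1 and DUSP1, which EGF itself is known to induce, where 1.02% of tested genes rose in shLAD1 and 0.846% in shScramble cells. ERRFI1, a feedback inhibitor of the EGF receptor, had 5220 and 6239 normalized counts at 40 min in shLAD1 cells and 5449 and 5741 in shScramble cells. At 240 against 0 min 3 of the 9 rose and 3 fell in each kind of cell. Of all tested genes, 10.8% rose and 7.76% fell there in shLAD1 cells, and 11.7% rose and 8.44% fell in shScramble cells. TSC22D3 fell by 1.82 in shLAD1 and by 2.24 in shScramble cells, KLF9 by 0.92 and by 1.05, and PER1 by 0.63 and by 1.23, while CRISPLD2 rose by 1.76 and 1.46 and ERRFI1 by 1.82 and 1.44. 

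Genes were also ranked by likeness to the members' mean standardized log2 level over the 12 libraries, among the 11239 tested genes that averaged 50 or more normalized counts. The highest Pearson r were those of CRKL (0.89), WDFY1 (0.88), METTL12 (0.87), CUEDC1 (0.85), PRPF4 (0.84), HOOK3 (0.82), STK4 (0.82) and ZMYND15 (0.81). The lowest were those of SAP30 (-0.86), ATF4 (-0.85), NEIL3 (-0.82) and ING1 (-0.82). Among so many genes over 12 libraries, values of this size are a ranking and carry no test. CRKL, an adaptor protein of receptor signalling, ran from 1352 to 1613 normalized counts, a far narrower range than the members themselves.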

How the data were processed

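RNA-seq libraries of 12 samples were compared. Per the submitters' processing notes, STAR, DESeq2 and the build hg19 were used; their versions, the counter, annotation and strandedness are not stated in these sources. The table the authors deposited holds normalized signal: read counts divided by a size factor per library. Whole reads came out for 100% of values (within 0.001). The deposited log2 fold changes, their standard errors, the Wald score and the p-values were not used.

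limma-trend (limma 3.58.1, R 4.3.3, robust) was fitted to log2(normalized count + 1), which understates changes of low genes, over the 13950 genes that reached 10 normalized counts in 2 or more libraries, with a mean per group. Benjamini-Hochberg adjustment covered all tested genes within a comparison, called under 0.05, two-sided; ± is the fitted SE unless SD is named. edgeR 4.0.16 (quasi-likelihood, TMM) and DESeq2 1.42.0 on the recovered reads were alternatives; edgeR called 115 genes at 40 min of EGF in shScramble cells, limma-trend 119. limma-trend without a block and edgeR were tried on simulated libraries that were not paired. The fits with a block and DESeq2 were not tried in this way.

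The numbers 1 and 2 of the labels paired the samples: deviations from group means correlated at 0.645 to 0.734 for 6 group pairs sharing an shRNA and 0.247 to 0.307 for 9 that did not. The labels do not say whether libraries are separate cultures, so p-values reflect spread among libraries only, possibly technical. Members and lists were chosen with earlier results of these data known. Named genes are the 5 members, other metallothioneins, LAD1, up to 4 called genes per list and comparison by adjusted p, and the 8 most and 4 least alike genes. Coding sequences came from GENCODE 29, promoters from RefSeq (GRCh38.p14).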

Additional observations from a re-analysis of the deposited data

Results flagged for a closer look

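For 4 of the 5 members the 40 min response in shLAD1 cells differed in direction from that in shScramble cells, with both shLAD1 pairs of same-number libraries higher at 40 than at 0 min and both shScramble pairs lower. The difference, shLAD1 minus shScramble on the log2 scale, was 3.07 for MT1G, 2.19 for MT1E, 1.32 for MT2A and 0.55 for MT1X. Leaving out 1 library at a time gave 2.05 to 4.10, 0.79 to 3.58, 0.96 to 1.69 and 0.0008 to 1.09 in that order. In the test of that difference without a block, limma-trend gave an adjusted p of 1 for each and unadjusted p of 0.0396, 0.171, 0.0184 and 0.474 for MT1G, MT1E, MT2A and MT1X. With a block within each shRNA, the adjusted p was 0.00129 for MT1G and 0.00569 for MT1X, and 0.108 for MT1E and 0.464 for MT2A. Of all 13950 tested genes, 665 (4.77%) had the same arrangement of signs at 40 min and 289 (2.07%) at 240 min. At 0 min MT1G started lower in shLAD1 cells (5.13 and 24.4 normalized counts) than in shScramble cells (34.2 and 104.9), and whether that bears on its response was not tested.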

How the results depend on the processing

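Fold changes kept their direction and call in 862 of the 955 alternatives tried for the 60 member values. In 32 they passed the threshold only in the alternative, and in 0 they lost it. Only 1 of the 60 values was called by limma-trend without a block, MT2A at 240 against 40 min in shScramble cells. No other value could therefore lose a call. In 61 the sign turned, 52 of these when a library was left out. Those 61 were spread over 30 of the 60 values. The cause was not tested. The pseudocounts 0.5 and 5, the filter at 50 normalized counts, no filter, total-count and upper-quartile scaling and edgeR changed no count of called members.

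The replicate block moved the number of called members to 1 (from 0) at 40 and at 240 against 0 min in shScramble cells, to 3 (from 1) at 240 against 40 min there, and to 1 (from 0) between shLAD1 and shScramble cells at 0, 40 and 240 min and in the mean of the 3 times. It changed no other such count. The replicate block within each shRNA gave 4, 2 and 5 at 40 against 0, 240 against 0 and 240 against 40 min in shScramble cells, 3 and 2 at 240 against 0 and 240 against 40 min in shLAD1 cells, and 2 for the difference of the 40 min responses. DESeq2 gave 1 at 240 against 0 min in each kind of cell, and between them at 40 min and in the mean of the 3 times. A fit of the compared groups alone gave 1 at 240 against 0 and 3 at 240 against 40 min in shScramble cells. It called 3096 of 13416 and 3097 of 13420 tested genes there. Leaving out each library left these counts at 0, or at 1 for 240 against 40 min in shScramble cells.

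Without a block, single libraries decided the sign of the smaller changes, leaving 1 out in turn. For 40 against 0 min in shLAD1 cells, it ran from -0.018 to 0.67 (MT1E), -0.30 to 0.11 (MT1F), -0.14 to 1.91 (MT1G), -0.34 to 0.75 (MT1X), -0.062 to 0.67 (MT2A). For 240 against 0 min in shLAD1 cells, it ran from -0.066 to 0.56 (MT1E), -0.15 to 0.24 (MT1F), -0.16 to 1.89 (MT1G), -0.06 to 1.03 (MT1X). For 240 against 0 min in shScramble cells, it ran from -1.57 to 0.93 (MT1E), -0.97 to 0.62 (MT1G). For 240 against 40 min in shLAD1 cells, it ran from -0.42 to 0.27 (MT1E), -0.069 to 0.34 (MT1F), -0.91 to 0.86 (MT1G), -0.25 to 0.81 (MT1X). For shLAD1 against shScramble cells at 0 min, it ran from -1.06 to 0.21 (MT1E), -0.065 to 0.32 (MT1F), -0.82 to 0.27 (MT1X), -0.32 to 0.41 (MT2A). For shLAD1 against shScramble cells at 40 min, it ran from -0.26 to 0.80 (MT1X). For shLAD1 against shScramble cells at 240 min, it ran from -1.10 to 1.39 (MT1E), -0.042 to 0.093 (MT1F), -0.91 to 0.032 (MT1X), -0.23 to 0.40 (MT2A). For shLAD1 against shScramble cells in the mean of the 3 times, it ran from -0.33 to 0.034 (MT1X). For the difference of the 40 min responses, it ran from -0.0396 to 0.37 (MT1F). For the difference of the 240 min responses, it ran from -0.68 to 1.82 (MT1E), -0.30 to 0.091 (MT1F), -0.71 to 0.38 (MT1X), -0.32 to 0.41 (MT2A). No value of 40 against 0 or 240 against 40 min in shScramble cells turned.

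Signs also turned for MT1E with edgeR and DESeq2 at 240 against 0 min in shScramble cells (0.017 and 0.0274) and between shLAD1 and shScramble cells at 240 min (-0.31 and -0.31). For MT1G at 240 against 40 min in shLAD1 cells they gave 0.16 and 0.16, and a pseudocount of 5 gave 0.003. MT1F at 240 against 0 min in shLAD1 cells was -0.005 with upper-quartile and -0.0761 with total-count scaling. With total-count scaling the median log2 change of all tested genes was -0.13 in shLAD1 and -0.14 in shScramble cells at 240 against 0 min (-0.0084 and -0.0173 otherwise), where it called 1016 genes higher and 1915 lower in shLAD1 cells (1502 and 1083 otherwise) and 1143 and 2200 in shScramble cells (1635 and 1178 otherwise). At 240 against 40 min it called 916 and 1448 in shLAD1 cells (1233 and 1055) and 1055 and 1705 in shScramble cells (1417 and 1163). Between the shRNAs at 0, 40 and 240 min, 217, 230 and 133 genes were called by limma-trend, 493, 517 and 362 by DESeq2 and 1600, 1578 and 1462 with the replicate block.

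With 2 libraries per group the spread is poorly known, and MT1E and MT1G, at 1079 and 396 reads in all, are limited by counting as well. Calls under the block within each shRNA compare 2 populations per shRNA and lean on the spread shared over all genes. The 0 min libraries are the baseline of both later times.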

Other observations

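MT1E stood against MT1G and MT1X in which library was higher. In shLAD1 cells library 2 had 0.643, 0.619 and 0.646 of the MT1E level of library 1 at 0, 40 and 240 min, and in shScramble cells 0.411, 0.133 and 0.173. For MT1G the same ratio was 4.76, 2.04 and 3.64 in shLAD1 cells and 3.07, 2.01 and 2.16 in shScramble cells. For MT1X it was 2.13, 2.08 and 1.92 in shLAD1 cells and 1.51, 1.34 and 1.65 in shScramble cells. These genes share a chromosomal cluster, and the ratios kept their side of 1 at all 3 times in both kinds of cells. The deposited column names start with o for library 1 and with s for library 2, in both kinds of cells. Neither they nor the labels say what the letters or numbers mark.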
